A study of Rattus norvegicus with 12 samples.

Results

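The genes described are 38 macrophage and leukocyte genes, chosen by symbol from the table of 17312 genes measured in neonatal rat ventricular cardiomyocytes. All 38 symbols were listed. The cells came from Wistar rats and had been treated with a control siRNA or with an siRNA against Wnt5a, a secreted signalling protein of the Wnt family. Each siRNA was studied with and without cell stretch, a mechanical load on the culture, which gives 4 groups of 3 RNA-seq libraries and 12 libraries in all. The study asked about Wnt5a in the response of heart muscle cells to mechanical load. Control stands for the control siRNA in the group names below. Levels are in FPKM, fragments scaled to transcript length and to library size. The labels do not say whether the 3 libraries of a group came from separate cultures, and a p-value here reflects only how far libraries of a group differ, which may be technical. The labels do not state how many siRNA sequences were used or how far and how long the cells were stretched.

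Macrophages are phagocytes that live in most tissues, the heart included, where they clear dead cells and debris, present antigen and release complement. Their identity rests on the transcription factor Spi1 (PU.1) and on signalling through the receptor Csf1r, and they share with other leukocytes the receptor adaptors Tyrobp and Fcer1g, the beta-2 integrins and the phagocyte NADPH oxidase. Cultures of neonatal heart muscle cells are prepared from whole digested ventricles, a tissue that also holds fibroblasts, endothelial cells and leukocytes.

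Heart muscle markers were abundant in every library. Of the cardiomyocyte list, Tnnc1, Tnnt2 and Myl2, which encode sarcomere proteins, had the highest levels, and the 11 listed markers together summed to 15314 to 27485 FPKM per library. In unstretched control, Wnt5a itself stood at 12.3, 10.4 and 11.6 FPKM, and the libraries labelled unstretched Wnt5a siRNA had 6.15, 4.6 and 6.81 FPKM. That difference was -0.87 ± 0.14 (SE) on the log2(FPKM + 1) scale, with an adjusted p of 0.00142 (limma). With stretch, Wnt5a stood at 6.52, 5.66 and 8.22 FPKM in control and at 6.22, 5.88 and 5.56 FPKM in the libraries labelled Wnt5a siRNA. These groups overlapped, the difference was -0.17 ± 0.14 (SE), and the adjusted p was 0.387, so that a lower Wnt5a level was measured for the siRNA without stretch only. Every direction below that rests on the stretched Wnt5a siRNA libraries therefore follows their label and not a measured loss of Wnt5a. The summed FPKM of all genes ran from 588509 to 598628 in unstretched control, 676014 to 709021 in stretched control, 575161 to 607276 in unstretched Wnt5a siRNA and 619742 to 659933 in stretched Wnt5a siRNA. Because these sums differ between groups, each count of changed genes is also given with every library scaled to the same sum, called equal-sum scaling (TPM), where that matters.

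All 38 members were above 0 in at least 1 library, and 36 were above 0 in all 12. The exceptions were Cx3cr1, a chemokine receptor of resident macrophages and monocytes, and Cd163, a haemoglobin scavenger receptor. By mean level over the 12 libraries, 7 members stood at 20 FPKM or more, 15 at 5 to 20, 12 at 1 to 5 and 4 under 1. The 7 most abundant were Gpnmb, Lyz2, Cd48, Tyrobp, Fcer1g, Cd68 and Ncf1. A test across genes covered the 10518 genes with at least 1 FPKM in at least 3 libraries, among them 34 members. The 4 members under that limit were Cx3cr1, with 0.335 FPKM at most, Cd163, with 0.0882 at most, Adgre1, the gene of the mouse macrophage antigen F4/80, with 0.618 at most, and Fcgr2b, the inhibitory IgG receptor, with 0.753 at most. Of the 34, 30 reached 1 FPKM in all 12 libraries; C1qb, C1qc, Plek and Vav1 did not.

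Genes that define lymphocytes and granulocytes were at or near 0. None of the 11 T cell, 6 B cell, 7 NK cell and 10 neutrophil markers listed in the files passed the filter for testing. The T cell receptor complex genes Cd3e, Cd3d, Cd3g and Cd247 and the B cell genes Cd79b, Ms4a1 and Pax5 were at 0 in every library. The summed T cell list did not exceed 2.43 FPKM in any library, and the neutrophil list did not exceed 1.22 FPKM. Macrophage genes such as Csf1r, Spi1, C1qa, Tyrobp and Cd68 were at 1 FPKM or more in all 12 libraries, while Adgre1, Cx3cr1 and Cd163, which also mark macrophages, stayed under 1 FPKM throughout. In these bulk samples, fewer cells of a type and less RNA of a gene per cell cannot be told apart.

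The third stretched control library stood apart from the other 2 of its group. It had the highest level of that group in 34 of 34 tested members, while 40.3% of all genes tested were highest there. Its level divided by the mean of stretched control 1 and 2 had a median of 1.64 over the tested members and of 0.994 over all genes tested. In 33 of the 38 members it was the highest of all 12 libraries. The same library had a fibroblast marker sum of 10175 FPKM, against 6343 and 6407 in the other 2 stretched control libraries, and a cardiomyocyte marker sum of 17863 FPKM, against 24926 and 27485. The part of these other cell type markers in the members' levels was not tested. The counts of genes called in the comparisons that use stretched control are given below with and without this library. Changes of single genes are given with it unless stated.

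**Figure D1:**
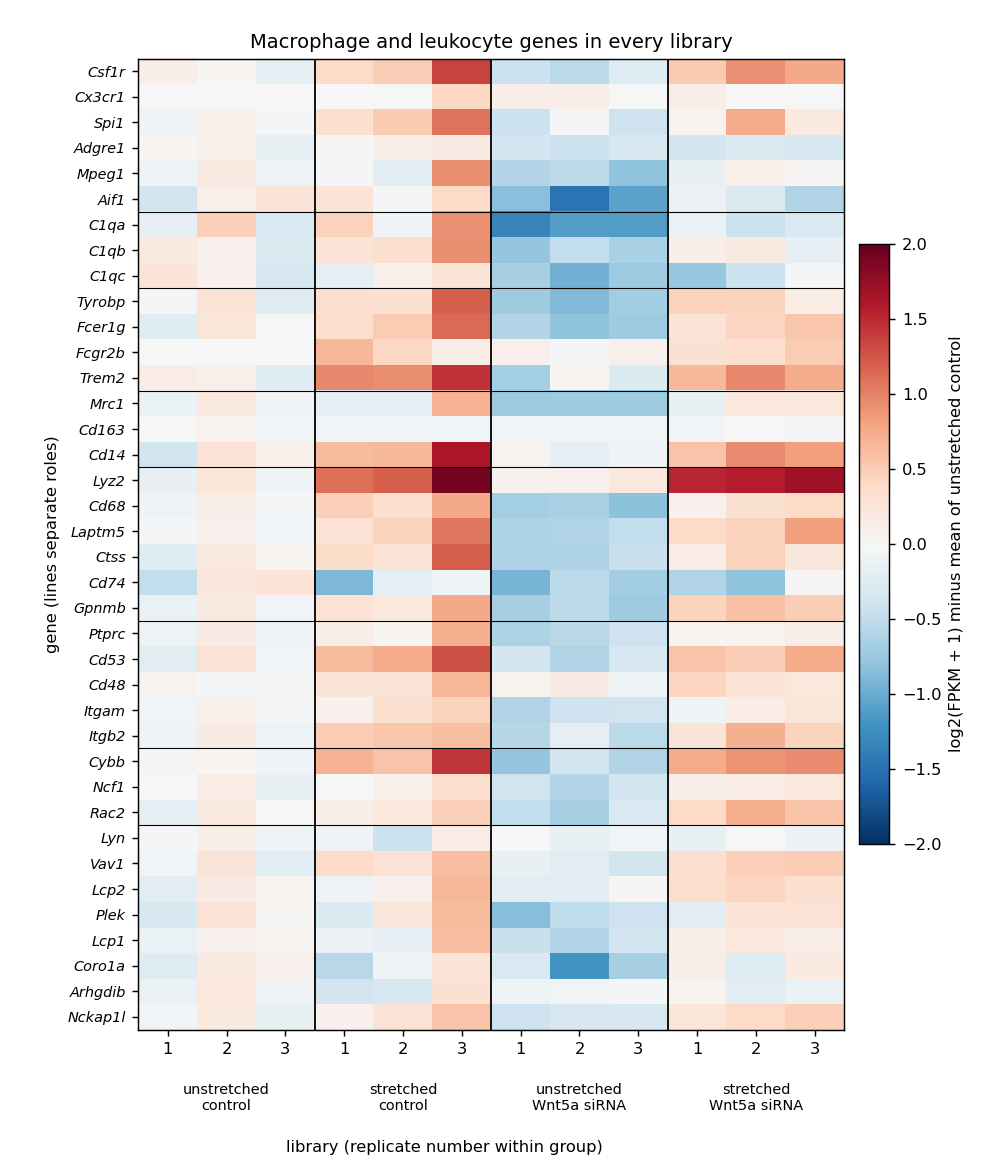
Level of the 38 genes in the 12 libraries, as log2(FPKM + 1) minus the mean of the 3 unstretched control libraries, with genes in rows ordered by role and libraries in columns by group. Red is above and blue below the unstretched control mean. Stretched control 3 is the most intensely red column, and most rows are blue in unstretched Wnt5a siRNA.

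The regions before the start sites of the members were read for the core letters bound by PU.1, the ETS factor encoded by the member Spi1. RefSeq promoters (build GRCr8, a later build than the rn6 of the expression values) were matched by symbol for 24 of the 38 members. GAGGAA, on either strand, occurred in the 250 bases before the start in 17 of the 24, or 70.8%, and in 7812 of 33469 rat promoters of the same length, or 23.3%. The longer GAGGAAG occurred in 11 of the 24 (45.8%) and in 10.2% of all promoters, and GAGGAAGT in 3 of the 24 (12.5%) and 2.04% of all; both contain GAGGAA. Such a match is a string of letters and not a measured binding site. The 5 sequences below are the 250 bases before the start, 5′ to 3′ on the gene's own strand, with the match to GAGGAA or its reverse complement TTCCTC in capitals. They belong to the pair of most abundant members (Gpnmb and Lyz2), to Cd68, to Cybb and to Cd48. The stretch response of Cd68 was called different between the siRNAs, a call that several alternatives lost. Cybb has the match closest to its start, and Cd48 is an abundant member with no match in this window.
Lyz2: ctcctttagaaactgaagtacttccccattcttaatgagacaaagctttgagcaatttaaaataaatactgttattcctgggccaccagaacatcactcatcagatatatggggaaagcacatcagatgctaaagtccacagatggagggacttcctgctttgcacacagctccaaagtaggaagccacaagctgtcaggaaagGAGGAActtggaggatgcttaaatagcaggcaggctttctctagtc
Gpnmb: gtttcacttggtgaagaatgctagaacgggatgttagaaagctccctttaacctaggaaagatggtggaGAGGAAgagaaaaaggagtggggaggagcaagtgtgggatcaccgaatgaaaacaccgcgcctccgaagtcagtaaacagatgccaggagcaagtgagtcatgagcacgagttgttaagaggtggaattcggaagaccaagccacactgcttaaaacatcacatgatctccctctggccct
Cd68: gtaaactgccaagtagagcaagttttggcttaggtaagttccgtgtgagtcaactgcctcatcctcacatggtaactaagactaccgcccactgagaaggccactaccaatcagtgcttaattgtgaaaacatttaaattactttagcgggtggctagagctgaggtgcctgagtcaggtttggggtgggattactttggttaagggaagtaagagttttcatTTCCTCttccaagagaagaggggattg
Cybb: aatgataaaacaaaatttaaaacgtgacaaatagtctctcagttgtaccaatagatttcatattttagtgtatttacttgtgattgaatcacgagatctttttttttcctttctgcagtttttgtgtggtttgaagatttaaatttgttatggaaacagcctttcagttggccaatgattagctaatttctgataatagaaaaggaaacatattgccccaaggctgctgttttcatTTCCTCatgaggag
Cd48: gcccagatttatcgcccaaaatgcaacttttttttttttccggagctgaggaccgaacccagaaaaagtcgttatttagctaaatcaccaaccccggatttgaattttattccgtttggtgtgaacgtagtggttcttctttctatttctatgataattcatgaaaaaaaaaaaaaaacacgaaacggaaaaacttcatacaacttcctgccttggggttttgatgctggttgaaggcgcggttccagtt
The Lyz2 window is chr7:54798012-54798261 on the minus strand, with the match 46 bases before the start. The Gpnmb window is chr4:79340878-79341127 on the plus strand, with the match 181 bases before the start. The Cd68 window is chr10:54882442-54882691 on the minus strand, with the match 27 bases before the start. The Cybb window is chrX:16065066-16065315 on the minus strand, with the match 14 bases before the start. The Cd48 window is chr13:86717744-86717993 on the plus strand.

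Summed over the 38 genes, the level was 746 ± 85.0 FPKM (SD, n = 3) in unstretched control, 1133 ± 293 with stretch, 531 ± 12.2 in unstretched Wnt5a siRNA and 1113 ± 43.5 in its stretched counterpart. Gpnmb and Lyz2 made up more of this sum than all the others together. Without them the sums ran from 315 to 378 FPKM in unstretched control, 404 to 628 in stretched control, 236 to 238 in unstretched Wnt5a siRNA and 400 to 429 in stretched Wnt5a siRNA. With or without that pair, the unstretched Wnt5a siRNA libraries were lowest, and neither unstretched group overlapped its stretched counterpart.

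Lysozyme, Lyz2, an enzyme that cleaves bacterial cell walls and is made by macrophages and neutrophils, had the largest response to stretch of the tested members with control siRNA. It stood at 64.2, 85.5 and 67.3 FPKM in unstretched control and at 155, 165 and 273 FPKM in stretched control. With Wnt5a siRNA it stood at 76.3, 76.3 and 83.1 FPKM without stretch and at 208, 214 and 236 FPKM with it. Every stretched library was above every unstretched one, and the 2 unstretched groups overlapped, as did the 2 stretched groups. On the log2(FPKM + 1) scale Lyz2 rose with stretch by 1.4 ± 0.17 (SE) with control siRNA (adjusted p = 3.56e-05, limma) and by 1.47 ± 0.17 with Wnt5a siRNA (adjusted p = 0.000356, limma). Without stretch the difference between the siRNAs was 0.13 ± 0.17 (95% interval -0.25 to 0.50), with an adjusted p of 0.616 (limma).

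Gpnmb, a glycoprotein of phagosomes and lysosomes that other cell types make too, was the most abundant member. It stood at 306, 380 and 324 FPKM in unstretched control and at 411, 387 and 570 FPKM in stretched control. With Wnt5a siRNA it stood at 212, 234 and 204 FPKM without stretch and at 456, 504 and 472 FPKM with it. The unstretched Wnt5a siRNA libraries were all below the controls, and the stretched ones lay within the range of stretched control. Gpnmb rose with stretch by 0.42 ± 0.13 (log2, SE) with control siRNA (adjusted p = 0.0144, limma) and by 1.14 ± 0.13 with Wnt5a siRNA (adjusted p = 0.000276, limma). Without stretch it fell by 0.63 ± 0.13 on the log2 scale with Wnt5a siRNA (adjusted p = 0.00431, limma). With equal-sum scaling its rise in control was 0.19, no longer past the threshold.

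Cd68, a lysosomal membrane protein used as a macrophage marker, stood at 29.6, 33.7 and 30.4 FPKM in unstretched control and at 43.6, 39.1 and 53.1 FPKM in stretched control. With Wnt5a siRNA it stood at 19.1, 19.6 and 17.2 FPKM without stretch and at 33.2, 38.9 and 41.6 FPKM with it. The order was unstretched Wnt5a siRNA, unstretched control, then the 2 stretched groups, which overlapped each other. Cd68 rose with stretch by 0.51 ± 0.11 (log2, SE) with control siRNA (adjusted p = 0.00212, limma) and by 0.98 ± 0.11 with Wnt5a siRNA (adjusted p = 0.000317, limma). Without stretch it fell by 0.71 ± 0.11 on the log2 scale with Wnt5a siRNA (adjusted p = 0.00127, limma). Of the other lysosomal and antigen presentation genes, Laptm5, a lysosomal membrane protein of blood cells, and Ctss, a protease that processes antigen, also rose with stretch with both siRNAs, and Laptm5 fell with Wnt5a siRNA without stretch. Cd74, the invariant chain of MHC class II, stood at 1.1 to 3.77 FPKM and passed the test in no comparison. In some alternatives, such as the replicate number as a block, it was called lower with Wnt5a siRNA without stretch.

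Tyrobp, the DAP12 adaptor through which Trem2 and other receptors signal, stood at 31.1, 38.7 and 26.9 FPKM in unstretched control and at 39.9, 39.8 and 74.0 FPKM in stretched control. With Wnt5a siRNA it stood at 19.2, 16.8 and 19.2 FPKM without stretch and at 44.2, 43.7 and 35.3 FPKM with it. Fcer1g, the common gamma chain of Fc receptors, stood at 24.3, 34.4 and 28.8 FPKM in unstretched control and at 37.1, 41.4 and 64.4 FPKM in stretched control. The 3 libraries of unstretched control did not overlap with stretched control for either adaptor, although Tyrobp in unstretched control 2 lay just below the lowest stretched library. Fcer1g with Wnt5a siRNA stood at 18.9, 16.1 and 17.2 FPKM without stretch and at 34.6, 39.3 and 42.7 FPKM with it. Tyrobp rose with stretch by 0.60 ± 0.20 (log2, SE) with control siRNA (adjusted p = 0.0247, limma), a call lost without stretched control 3, and by 1.11 ± 0.20 with Wnt5a siRNA (adjusted p = 0.00403, limma). Both adaptors were lowest in unstretched Wnt5a siRNA, where Tyrobp fell by 0.76 ± 0.20 and Fcer1g by 0.70 ± 0.18 on the log2 scale (adjusted p = 0.016 and 0.0118, limma). Trem2, a lipid-sensing receptor that pairs with Tyrobp, also rose with stretch, from 3.27 to 4.70 FPKM in unstretched control to 8.77 to 12.9 FPKM in stretched control. Fcgr2b, which was not tested, stood at 0.10 to 0.111 FPKM in unstretched control and 0.212 to 0.753 FPKM in stretched control, and was called higher there when genes with low values were kept.

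**Figure D2:**
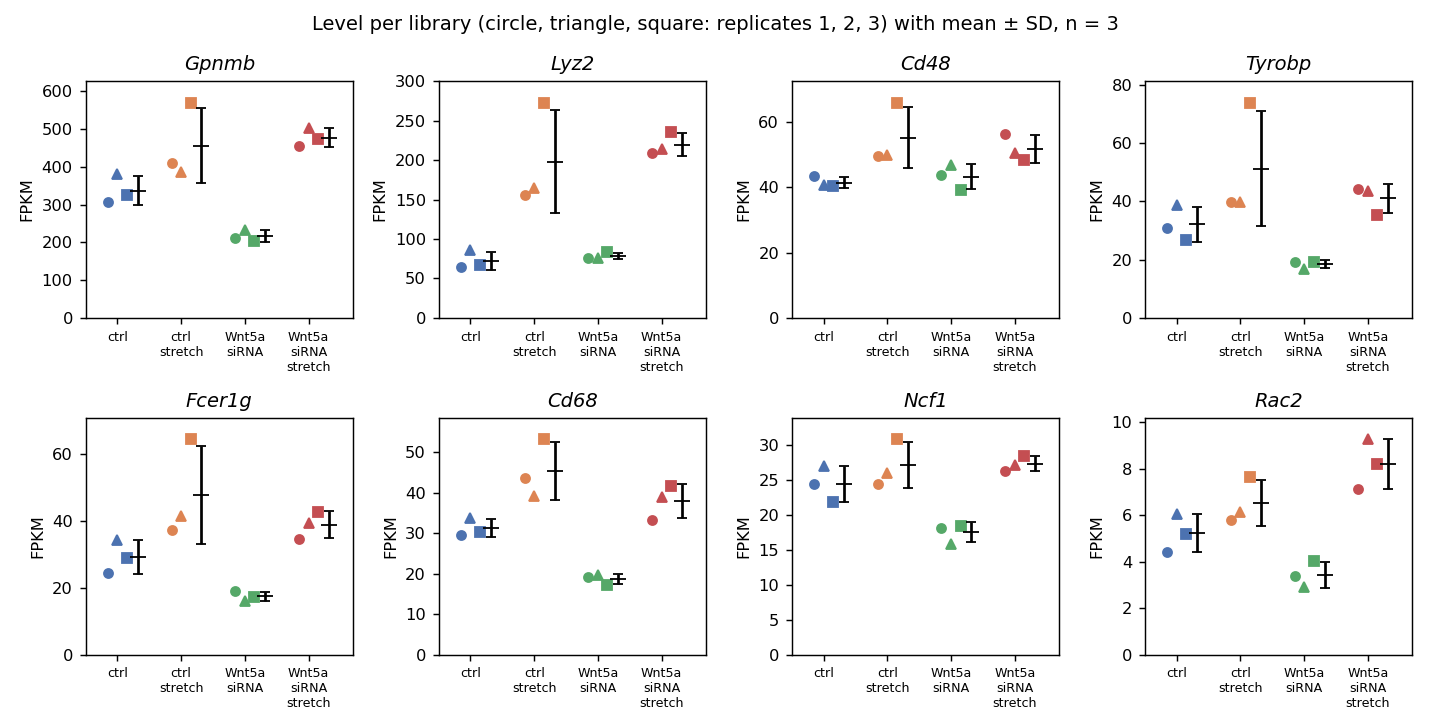
FPKM of the 7 most abundant members and of Rac2 in the 12 libraries, 1 panel per gene; points are libraries (circle, triangle and square for replicates 1, 2 and 3) and bars are the mean ± SD of each group (n = 3). In all panels but Cd48 and Lyz2 the unstretched Wnt5a siRNA libraries are the lowest 3, as for Cd68 at 17.2 to 19.6 FPKM.

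Among the 3 genes of the phagocyte NADPH oxidase listed here, Cybb, its membrane-bound catalytic subunit, stood at 11.7 to 12.8 FPKM in unstretched control and 19.0 to 35.0 FPKM in stretched control. With Wnt5a siRNA, Cybb stood at 6.86 to 9.30 FPKM without stretch and 21.4 to 24.8 FPKM with it, a rise of 1.44 ± 0.18 (log2, SE; adjusted p = 0.000454, limma). All stretched libraries were above all unstretched ones. Ncf1, a cytosolic subunit that organises the active complex, stood at 24.4, 26.9 and 21.9 FPKM in unstretched control and at 24.4, 26.0 and 30.8 FPKM in stretched control. With Wnt5a siRNA it stood at 18.2, 15.9 and 18.4 FPKM without stretch and at 26.3, 27.2 and 28.4 FPKM with it. Rac2, the leukocyte GTPase that activates the oxidase, stood at 4.43, 6.06 and 5.19 FPKM in unstretched control and at 5.80, 6.14 and 7.64 FPKM in stretched control. For both cytosolic components the 2 control groups overlapped and the 2 Wnt5a siRNA groups did not. Rac2 with Wnt5a siRNA stood at 3.38, 2.90 and 4.03 FPKM without stretch and at 7.14, 9.27 and 8.22 FPKM with it. Stretch changed Ncf1 by 0.14 ± 0.10 with control siRNA, which did not pass the test, and raised it by 0.62 ± 0.10 with Wnt5a siRNA (log2, SE; adjusted p = 0.00198, limma). The Rac2 values were 0.27 ± 0.14, which did not pass, and 1.05 ± 0.14 (adjusted p = 0.000706, limma). All 3 oxidase genes fell with Wnt5a siRNA without stretch, by 0.45 to 0.59 on the log2 scale.

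The 3 complement chains and, of the 4 tested lineage genes, Aif1 were lower with Wnt5a siRNA without stretch. C1qa, a chain of the first complement component made largely by macrophages, stood at 8.80 to 15.9 FPKM in unstretched control and 10.5 to 21.8 FPKM in stretched control. It stood at 3.85 to 4.57 FPKM in unstretched and 7.95 to 10.0 FPKM in stretched Wnt5a siRNA libraries, in each case below every control library of the same stretch. C1qa fell in both siRNA comparisons, by 1.19 ± 0.23 without stretch (adjusted p = 0.00334, limma) and by 0.73 ± 0.23 with stretch (adjusted p = 0.0355, limma). Without stretched control 3 the latter difference was -0.49 and did not pass. That call was also lost without stretched control 1, without any single library of stretched Wnt5a siRNA, and with equal-sum scaling. C1qb and C1qc also fell without stretch; with stretch their differences of -0.47 ± 0.19 and -0.46 ± 0.21 did not pass the test. Aif1 (Iba1), an actin-binding protein of macrophages, stood at 6.48 to 10.4 FPKM in unstretched control and 2.46 to 4.40 FPKM in unstretched Wnt5a siRNA, a fall of 1.12 ± 0.20 (log2, SE; adjusted p = 0.00206, limma). Mpeg1, a pore-forming protein of phagosomes, stood at 7.59 to 9.49 FPKM in unstretched control and 7.01 to 16.6 FPKM in stretched control. In unstretched Wnt5a siRNA it stood at 4.32 to 5.42 FPKM, below every unstretched control library. It passed the test in no comparison. Some alternatives, quantile scaling among them, called it lower with Wnt5a siRNA without stretch and higher with stretch in Wnt5a siRNA. Csf1r, the receptor for the macrophage growth factor Csf1, rose with stretch with both siRNAs. Spi1 rose by 0.64 ± 0.21 with stretch in control (adjusted p = 0.0202, limma), a call lost without stretched control 3, and its stretch difference with Wnt5a siRNA was 0.63 ± 0.21, which did not pass without the replicate block and passed with it (adjusted p = 0.0396, limma). Adgre1, below the limit for testing, stood at 0.298 to 0.618 FPKM in the 6 control libraries and at 0.0723 to 0.192 FPKM in the 6 Wnt5a siRNA libraries; when genes with low values were kept it was called lower with the siRNA both with and without stretch.

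Of the scavenger and pattern receptors, Cd14, a co-receptor for bacterial lipopolysaccharide, stood at 3.43 to 6.12 FPKM in unstretched control and 8.02 to 16.9 FPKM in stretched control, a rise of 0.97 ± 0.24 (log2, SE; adjusted p = 0.00484, limma). Its levels with Wnt5a siRNA were 4.13 to 5.12 FPKM without stretch and 7.61 to 10.2 FPKM with it. Mrc1, the mannose receptor of tissue macrophages, differed from Cd14 with control siRNA. It stood at 4.28 to 5.59 FPKM in unstretched control and at 4.05, 4.04 and 8.33 FPKM in stretched control. Thus 2 stretched control libraries were below all unstretched ones. Mrc1 stood at 2.5 to 2.54 FPKM in unstretched Wnt5a siRNA, a fall of 0.71 ± 0.21 on the log2 scale (adjusted p = 0.0224, limma). With stretch in Wnt5a siRNA it stood at 4.19 to 5.71 FPKM, and both Mrc1 and Cd14 were called higher there. Each of these calls was lost on leaving out some single libraries.

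The leukocyte surface proteins were uneven. Cd48, a GPI-anchored ligand of the SLAM family, stood at 43.4, 40.7 and 40.4 FPKM in unstretched control and at 49.6, 50.0 and 66.0 FPKM in stretched control. With Wnt5a siRNA it stood at 43.7, 46.8 and 39.2 FPKM without stretch and at 56.4, 50.5 and 48.3 FPKM with it. Cd48 thus moved less than most abundant members: it rose by 0.39 ± 0.11 with stretch in control (log2, SE; adjusted p = 0.00825, limma), and differed by 0.05 ± 0.11 (95% interval -0.18 to 0.29) between the siRNAs without stretch. Cd53, a tetraspanin of leukocytes, stood at 7.67 to 11.3 FPKM in unstretched control and 14.7 to 23.5 FPKM in stretched control, and rose with stretch with both siRNAs. Itgb2, the beta-2 integrin chain, did likewise and fell with Wnt5a siRNA without stretch. Its partner Itgam and Ptprc (CD45), the phosphatase carried by all leukocytes, rose with stretch with Wnt5a siRNA and fell with Wnt5a siRNA without stretch; with control siRNA their stretch differences of 0.29 ± 0.13 and 0.30 ± 0.16 did not pass.

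Of the 8 signalling and cytoskeletal genes, Vav1, a guanine nucleotide exchange factor, was the 1 called with stretch in control. Arhgdib stood at 14.4 to 18.4 FPKM in unstretched control and 12 to 19.8 FPKM in stretched control. Its levels with Wnt5a siRNA were 14.7 to 15.4 FPKM without stretch and 13.6 to 16.7 FPKM with it. Lyn, a kinase of the Src family, stood between 11.1 and 16.9 FPKM in all 12 libraries. Neither gene passed the test in any comparison, and all 4 groups overlapped for both. Lcp1 (L-plastin), an actin-bundling protein, and Coro1a, an actin regulator of leukocytes, were called lower with Wnt5a siRNA without stretch. The Lcp1 call was lost with equal-sum scaling and on leaving out any single library of either group. The Coro1a call was lost without unstretched control 2 or 3 and without unstretched Wnt5a siRNA 2 or 3. Both calls were also lost in other settings, such as keeping genes with low values. Lcp1, Vav1 and Nckap1l, part of the WAVE actin regulatory complex, rose with stretch with Wnt5a siRNA. That rise of Lcp1 was not called with equal-sum scaling. Lcp2, a T cell and myeloid adaptor, passed in no comparison. Plek, a substrate of protein kinase C, passed in none without the replicate block, and with it was called higher with stretch in Wnt5a siRNA (adjusted p = 0.0107, limma).

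Over the 34 tested members, 17 rose and none fell with stretch when cells carried the control siRNA, at an adjusted p under 0.05 (limma); 19 of the 34 had an unadjusted p under that value. Of all genes tested, 27.5% were called higher and 26.8% lower, so the members' share of higher calls, 17 of 34, is to be read against a high background. The median log2 difference was 0.41 over the members and 0.01 over all genes. By role, 5 of 6 lysosomal, 3 of 3 tested Fc receptor and adaptor, 3 of 5 surface, 2 of 4 tested lineage, 1 of 2 tested scavenger and pattern receptor, 1 of 3 C1q, 1 of 3 oxidase and 1 of 8 signalling and cytoskeletal genes were called. Without stretched control 3, 13 members were called higher and 1, Arhgdib, lower, beside 29.2% and 28.1% of all genes, and the median was 0.23. The calls of C1qb, Spi1, Tyrobp and Vav1 were lost. With equal-sum scaling, 6 members were higher and 1, Lyn, lower, beside 13.8% and 42.7% of all genes; the median of all genes then moved to -0.19 and that of the members to 0.18. The 6 were Lyz2, Trem2, Cd14, Cd53, Itgb2 and Cybb. The libraries of the 2 groups did not overlap in 17 members, all higher with stretch, and in 29% of all genes in that direction.

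With Wnt5a siRNA, 24 of the 34 tested members rose with stretch and none fell, beside 8.44% of all genes called higher and 7.59% lower (limma). The median log2 difference was 0.76 over the members and -0.01 over all genes. These libraries do not include stretched control 3, which enters only through the shared estimate of the spread; without it 30 members were called higher, beside 12.6% of all genes. With equal-sum scaling 22 were higher, beside 4.77%. In 30 of the 34 members every stretched library was above every unstretched one, beside 20.1% of all genes, and in none was every stretched library below, beside 20.6%. The replicate numbers of these 2 groups met the condition for pairing. With the replicate number as a block, fitted over all 12 libraries, 26 members were called higher, Plek and Spi1 being added. That block is shared by all 4 groups, and the other comparisons between groups did not meet the condition. Of the 17 members called in control, 15 (88.2%) were also called with Wnt5a siRNA, and these 15 are 62.5% of the 24 called there. The 88.2% is to be read against 24 of all 34 tested members called with Wnt5a siRNA. The stretch comparisons share no library, although they share 1 estimate of the spread, and the overlap was not tested.

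**Figure D3:**
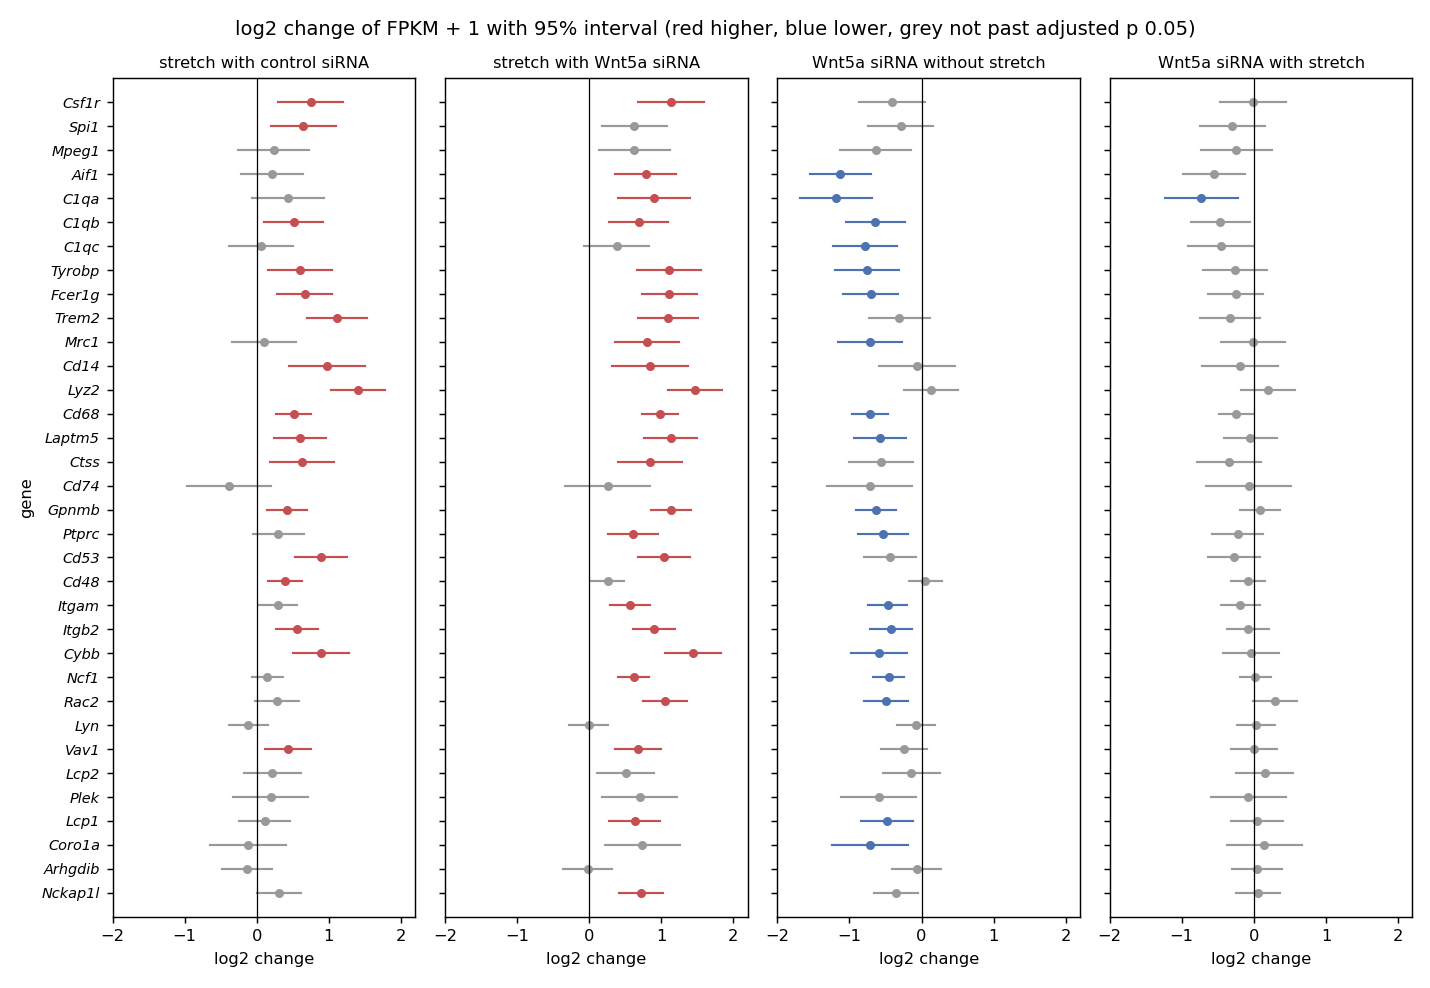
Log2 difference of FPKM + 1 with its 95% interval for the 34 tested members in the 4 comparisons between groups, from limma on all 12 libraries; red is called higher, blue called lower and grey not called. Red points fill most of the panel for stretch with Wnt5a siRNA (24 of 34), and the panel for Wnt5a siRNA with stretch holds 1 coloured point, C1qa.

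Whether stretch acted differently under the 2 siRNAs was tested directly, as the interaction of stretch and siRNA. Gpnmb, Rac2, Ncf1 and Cd68 rose more with stretch when cells carried Wnt5a siRNA (limma). By limma, the differences between the stretch effects were 0.72 ± 0.18 for Gpnmb (log2, SE; adjusted p = 0.0153), 0.78 ± 0.20 for Rac2 (adjusted p = 0.0158), 0.47 ± 0.14 for Ncf1 (adjusted p = 0.0297) and 0.47 ± 0.16 for Cd68 (adjusted p = 0.0488). In each of the 4 the libraries of unstretched Wnt5a siRNA were the lowest of all, and the 2 stretched groups overlapped. No member was called in the other direction, and 8 of the 34 had an unadjusted p under 0.05, all in this direction. Of all genes tested, 11.7% were called in this direction and 12.1% in the other, so 4 of 34 is near the background share. The median over the members was 0.39, and over all genes 0.00. Without stretched control 3, 16 members were called, beside 16.5% of all genes, and the median was 0.55. The added ones were Coro1a, Csf1r, Ctss, Cybb, Fcer1g, Laptm5, Lcp1, Mpeg1, Mrc1, Nckap1l, Ptprc and Tyrobp. With equal-sum scaling the same number, 4, was called, beside 15.3% of all genes in this direction and 7.75% in the other. Cd68 was no longer called with the replicate number as a block, with low genes kept, or without a trend in the prior variance. Its call was also lost without any single library except stretched control 3 and stretched Wnt5a siRNA 1. The Ncf1 call was lost without unstretched control 1 or 2 and without stretched control 1 or 2. It was also lost without unstretched Wnt5a siRNA 2 and without stretched Wnt5a siRNA 2 or 3.

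Without stretch, 18 of the 34 tested members were lower with Wnt5a siRNA and none was higher, beside 13.9% of all genes called lower and 14.6% higher (limma). The median log2 difference was -0.51 over the members and 0.00 over all genes. All 3 C1q chains and all 3 oxidase genes were among the 18, as were 2 of the 3 tested Fc receptor and adaptor genes, 3 of 6 lysosomal genes, 3 of 5 surface genes, 1 of 2 tested scavenger and pattern receptors, 1 of 4 tested lineage genes and 2 of 8 signalling and cytoskeletal genes. In 25 of the 34 members the 3 siRNA libraries lay below the 3 control libraries, beside 24.7% of all genes. Only Lyz2 and Cd48 had a difference above 0, of 0.13 and 0.05. Equal-sum scaling moved this comparison little, with 17 members lower, beside 13.3% of all genes. Quantile scaling, another alternative, gave 24 members lower, beside 14.7% of all genes. Leaving out single libraries moved the count more. The count was 5 without unstretched control 2, where C1qa, Aif1, Cd68, Gpnmb and Ncf1 were still called, 10 without unstretched control 3, 9 without unstretched Wnt5a siRNA 1 and 10 without unstretched Wnt5a siRNA 2. Without stretched control 3, which is in neither group but enters the estimate of the spread, it was 25, beside 18.4% of all genes.

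With stretch, 1 of the 34 tested members, C1qa, was lower in the libraries labelled Wnt5a siRNA and none was higher, beside 14.2% and 13.2% of all genes (limma). The unadjusted p was under 0.05 in 5 members. The median log2 difference was -0.08, and 23 of the 34 differences were below 0. In 3 members the 3 siRNA libraries lay below the 3 control libraries, beside 19% of all genes. This comparison turned with stretched control 3. Without that library no member was called lower and 4 were called higher, Gpnmb, Lcp1, Lyz2 and Rac2, beside 22.6% and 21.8% of all genes, and the median was 0.10. With equal-sum scaling no member was called, while 7.71% of all genes were lower and 20.8% higher, and 3 members had an unadjusted p under 0.05. This comparison shares the stretched control libraries with stretch under control siRNA, and the stretched Wnt5a siRNA libraries with stretch under Wnt5a siRNA.

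**Figure D4:**
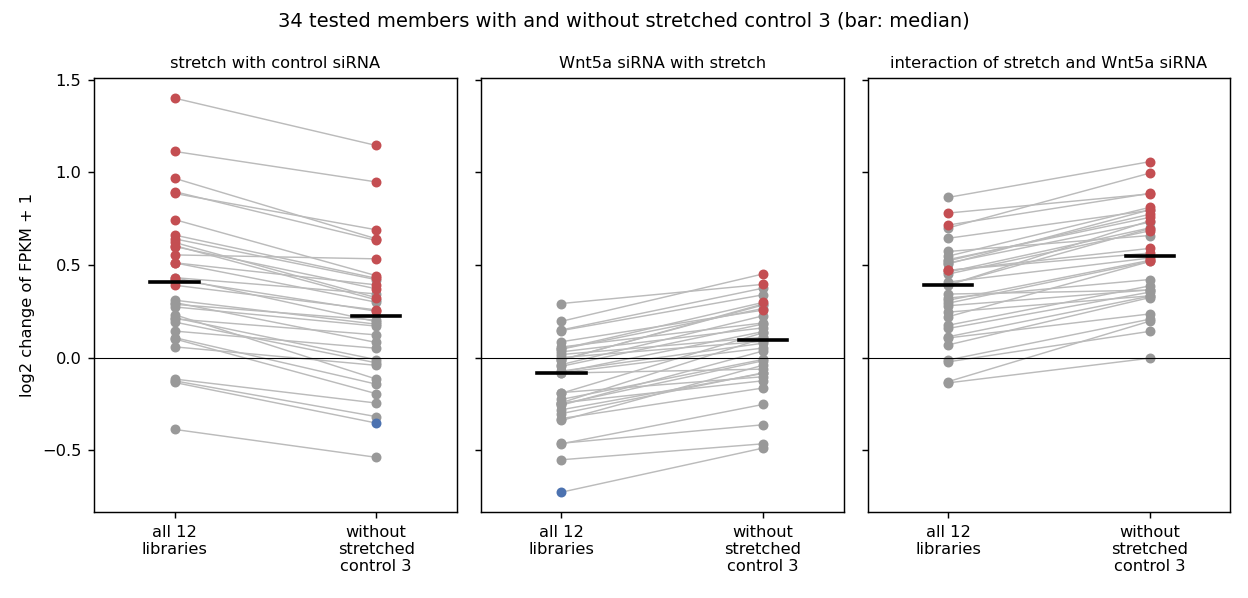
Log2 difference of the 34 tested members with all 12 libraries and without stretched control 3, in the 3 comparisons that use stretched control; lines join a gene, black bars are medians, and red, blue and grey are called higher, called lower and not called. The median for Wnt5a siRNA with stretch lies at -0.08 with the library and at 0.10 without it.

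A ratio of 2 genes in the same library does not depend on how the library was scaled. Ratios to Tyrobp were computed for 13 members, and the 6 plotted were chosen after their values were seen. Lyz2 stood at 2.07 to 2.5 times Tyrobp in unstretched control and at 3.69 to 4.15 times in stretched control. In Wnt5a siRNA the ratio was 3.98 to 4.53 without stretch and 4.72 to 6.68 with it, so that the 3 unstretched control libraries were the lowest of the 12, and stretched control 3, which has the highest Lyz2 level, lay with its own group. Fcer1g stayed between 0.782 and 1.21 times Tyrobp in all 12 libraries, with all 4 groups overlapping. The Cd48 ratio was 1.05 to 1.5 in unstretched control and 0.892 to 1.26 in stretched control, and it was 2.04 to 2.78 in unstretched and 1.16 to 1.37 in stretched Wnt5a siRNA. Lyn and Arhgdib had the same order as Cd48. The Lyn ratio was 0.758 to 0.806 in unstretched Wnt5a siRNA, above every other library, and 0.228 to 0.363 in stretched control. Each ratio also moves with Tyrobp itself. Tyrobp stood at 16.8 to 19.2 FPKM in unstretched Wnt5a siRNA and 39.8 to 74.0 FPKM in stretched control. Lyn stood between 11.1 and 16.9 FPKM in all 12 libraries. The order of these ratios is therefore not by itself a change of Lyn, Arhgdib or Cd48.

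**Figure D5:**
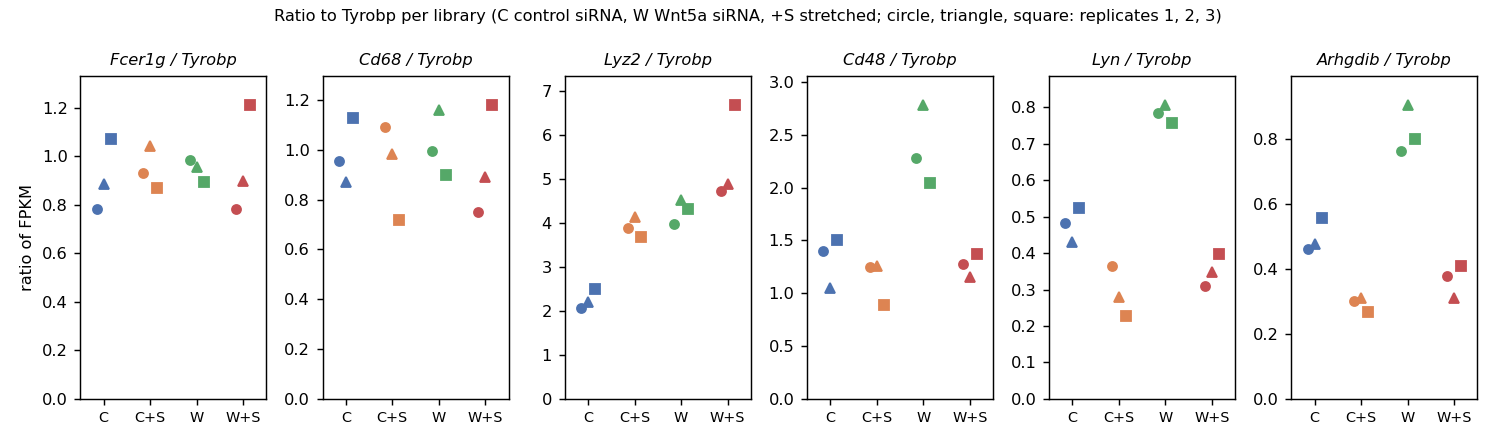
Ratio of 6 members to Tyrobp in each library, on the FPKM scale, by group; circles, triangles and squares are replicates 1, 2 and 3. The Fcer1g ratio stays between 0.782 and 1.21 in all 12 libraries, and the Lyz2 ratio is lowest in the 3 unstretched control libraries, at 2.07 to 2.5.

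A wider list of macrophage and myeloid genes gave 51 tested genes. Of these, 16 were higher and 2 lower with stretch in control, beside the 27.5% and 26.8% of all genes, with a median log2 difference of 0.27. With equal-sum scaling 9 were higher and 4 lower, beside 13.8% and 42.7% of all genes, with a median of 0.10. Without stretched control 3 the counts were 12 and 2, beside 29.2% and 28.1% of all genes, with a median of 0.15. With stretch in Wnt5a siRNA, 22 were higher and none lower, beside the 8.44% and 7.59% of all genes, with a median of 0.51. Without stretch, 1 was higher and 17 were lower with Wnt5a siRNA, beside 14.6% and 13.9% of all genes, with a median of -0.36. Lgals3 (galectin-3), its most abundant gene, is made by fibroblasts as well and stood at 160, 207 and 173 FPKM in unstretched control and 341, 311 and 365 FPKM in stretched control. Cyba, the partner of Cybb in the oxidase membrane complex, rose by 0.30 ± 0.10 (log2, SE; adjusted p = 0.0207, limma) with stretch in control and by 0.49 ± 0.10 with Wnt5a siRNA. Pf4, a chemokine stored in platelets and made by resident macrophages, fell by 0.94 ± 0.22 with Wnt5a siRNA without stretch (log2, SE; adjusted p = 0.00912, limma), from 54.1 to 65.4 FPKM in control to 21.2 to 44.2 FPKM.

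For macrophage growth factors, chemoattractants and ligands of the members, 16 genes were tested. Of these, 9 rose and 3 fell with stretch in control, beside 27.5% and 26.8% of all genes. With equal-sum scaling 7 rose and 3 fell, beside 13.8% and 42.7%. Without stretched control 3, 9 rose and 4 fell, beside 29.2% and 28.1%. With stretch in Wnt5a siRNA 7 of the 16 rose, beside 8.44% of all genes, and 6 with equal-sum scaling, beside 4.77%. Without stretch, 3 of the 16 were higher and 6 lower with Wnt5a siRNA, beside 14.6% and 13.9% of all genes. The most abundant was Apoe, a lipid carrier made by macrophages and a ligand of Trem2, at 231 to 319 FPKM in unstretched control and 133 to 166 FPKM in unstretched Wnt5a siRNA, a fall of 0.78 ± 0.14 (log2, SE; adjusted p = 0.0025, limma). Anxa1, an inhibitor of leukocyte entry, rose with stretch with both siRNAs, and Mif, a cytokine that binds Cd74, did not pass with either. Others were picked after their values were seen. Csf1, the ligand of Csf1r, stood at 31.8 to 33.1 FPKM in unstretched control and 53.6 to 68.7 FPKM in stretched control, and at 37.1 to 42.3 and 48.0 to 58.5 FPKM with Wnt5a siRNA. Il34, the other ligand of Csf1r, went the opposite way in control, from 2.16 to 3.78 FPKM without stretch to 0.674 to 1.04 FPKM with it. Ccl2, which attracts monocytes, rose with stretch by 1.11 ± 0.12 with control siRNA and by 1.0 ± 0.12 with Wnt5a siRNA (log2, SE). Cx3cl1, the ligand of Cx3cr1, stood at 15.2 to 19.8 FPKM in unstretched control and 25.9 to 36.2 FPKM in stretched control, but at 12.7 to 18.8 and 15.2 to 16.6 FPKM with Wnt5a siRNA. Its receptor, at 0.335 FPKM at most, was too low to be tested.

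Some markers of other cell types in the cultures also passed the test. The fibroblast list, led by Col1a1, Col3a1 and Vim, had 14 tested genes, of which 9 rose with stretch in control, 8 rose and 1 fell with stretch in Wnt5a siRNA, and 5 rose and 1 fell with Wnt5a siRNA without stretch. Its summed level was 4816 to 5288 FPKM in unstretched control, 6343 to 10175 in stretched control, 7032 to 7331 in unstretched Wnt5a siRNA and 10737 to 11473 in stretched Wnt5a siRNA. The fibroblast sum thus was higher, and the members' sum lower, in unstretched Wnt5a siRNA than in unstretched control. The cardiomyocyte list had 11 tested genes, of which 2 rose and 5 fell with stretch in control, and none rose and 4 fell in each of the other comparisons named for the fibroblast list. The endothelial list had 10 tested genes, of which 1 rose and 1 fell with stretch in control, 5 rose with stretch in Wnt5a siRNA and 1 fell with Wnt5a siRNA without stretch. Its summed level was 33.0 to 54.2 FPKM in the other 3 groups and 56.3 to 93.1 FPKM in stretched Wnt5a siRNA. The smooth muscle and pericyte list had 10 tested genes, of which 3 rose and 3 fell with stretch in control, and 1 rose and 5 fell with stretch in Wnt5a siRNA. With equal-sum scaling, 5 fibroblast genes rose and 2 fell with stretch in control, no cardiomyocyte gene rose and 7 fell, no endothelial gene rose and 3 fell, and 2 smooth muscle and pericyte genes rose and 3 fell. For stretch in control, the shares of all genes called were 27.5% higher and 26.8% lower without that scaling, and 13.8% and 42.7% with it. Without that scaling the shares were 8.44% higher and 7.59% lower for stretch in Wnt5a siRNA. For Wnt5a siRNA without stretch they were 14.6% higher and 13.9% lower. Without stretched control 3, 9 fibroblast genes rose and 1 fell with stretch in control, and 3 cardiomyocyte genes rose and 5 fell. In that fit no endothelial gene rose and 2 fell, and 4 smooth muscle and pericyte genes rose and 3 fell. The shares of all genes there were 29.2% higher and 28.1% lower. Of the mast cell and dendritic cell lists 1 gene each was tested, Kit and Zbtb46. The part of these cell types in the members' changes was not tested.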

How the data were processed

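RNA was extracted with a miRNeasy kit and made into libraries with a stranded TruSeq mRNA kit, per the labels' protocols. The submitters' processing notes name the rn6 build, the aligner TopHat2 2.1.1 with Bowtie2, and Cuffdiff 2.2.1. The deposited values are FPKM, 1 per gene symbol and library, made by the authors, per the file headers. Not given in the sources used here are the annotation, how libraries were scaled, whether strand was used in counting, and how reads with several alignments were counted. A family of near-identical genes or overlapping genes may therefore share reads. FPKM carry no counts, so the depth is unknown and no counting interval is given. Low values in 1369 of 1523 genes under 0.5 FPKM lay within 0.03 of whole-number steps after scaling each library by the value of 1 fragment, which varied by a factor of 1.20 between libraries.

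The 12 tables were joined by symbol. Groups were compared with limma 3.58.1 in R 4.3.3 on log2(FPKM + 1), which understates changes of low genes, with a trend in the prior variance, all 4 groups in 1 model without a block, and genes of at least 1 FPKM in at least 3 libraries. Tests were two-sided, with Benjamini-Hochberg adjustment over all 10518 genes and a threshold of 0.05. The scripts were tested on simulated data. The same replicate numbers occur in all 4 groups. Deviations from group means correlated over 0.1 in all 3 same-numbered pairs only between stretched and unstretched Wnt5a siRNA (0.184, 0.242 and 0.143), so the block is given beside that comparison. It was fitted over all 12 libraries, with the replicate effects shared by all 4 groups. For the other comparisons it is given as an alternative only.

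The 38 members and the 12 lists of other genes were chosen with earlier results of these data known. All members are accounted for. Values per library are given for members with a mean of at least 20 FPKM and for those called in the interaction, and up to 2 examples per role and 3 genes per other list follow by highest mean. Alternatives were another pseudocount, other filters, TPM and quantile scaling, a block, no trend, only the groups compared, and leaving out each library. Promoter sequences are from RefSeq (GRCr8).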

Additional observations from a re-analysis of the deposited data

Results flagged for a closer look

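In 4 members the change with stretch differed between the control and the Wnt5a siRNA by limma's test of the interaction, the rise with stretch being larger with Wnt5a siRNA. The difference between the stretch changes was 0.47 for Cd68, 0.72 for Gpnmb, 0.47 for Ncf1 and 0.78 for Rac2 on the log2 scale, with adjusted p-values of 0.0488, 0.0153, 0.0297 and 0.0158. Over the alternatives the adjusted p ranged from 0.0058 to 0.12 for Cd68, 0.00058 to 0.042 for Gpnmb, 0.0049 to 0.077 for Ncf1 and 0.0048 to 0.043 for Rac2. Beside them, 11.7% of all genes tested were called in this direction, and Wnt5a itself, with a difference of 0.70 ± 0.20 (SE), was among them. Wnt5a did not rise with stretch, however. Its stretch difference was -0.68 ± 0.14 (SE) with control siRNA (adjusted p = 0.00139, limma). With Wnt5a siRNA it was 0.02 ± 0.14 (SE; adjusted p = 0.948, limma).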

How the results depend on the processing

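With equal-sum (TPM) scaling, 7 members were called for stretch in control. The siRNA comparison under stretch had 0 calls with that scaling. Quantile scaling gave 5 for it, all lower, and a model of only the groups compared gave 0. Leaving out 1 library at a time gave 12 to 19 members for stretch in control, 17 to 30 for stretch under Wnt5a siRNA, 5 to 25 for the siRNAs compared without stretch and 2 to 16 for the interaction. For the siRNAs compared under stretch it gave 0 to 4, and the 4, without stretched control 3, were all higher. The mean summed level in unstretched Wnt5a siRNA was 567 with equal-sum and 546 with quantile scaling. With the replicate number as a block the counts were 17 for stretch in control, 26 for stretch under Wnt5a siRNA, 1 and 21 for the siRNAs compared with and without stretch, and 3 for the interaction. Over the 34 tested members, 5 comparisons and all alternatives, 3151 single results kept direction and side of the threshold, 155 no longer passed it, 89 newly did, and 91 changed sign without passing in either fit; no called result reversed. The causes were not tested. Without counts, the depth behind each member's value is unknown, and 3 libraries a group limit the precision.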
